A study of Mus musculus with 11 samples.

Results

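The small leucine-rich proteoglycans (SLRPs) examined here are 10 genes, Dcn, Bgn, Lum, Fmod, Ogn, Omd, Prelp, Aspn, Podn and Chad. They were taken by name from the 54232 genes of a count table, with earlier results of these data known. RNA of 11 orthotopic pancreatic tumors was sequenced, each from a different female C57BL/6 mouse. All hosts were heterozygous for RosaCreERT2, a tamoxifen-activated Cre expressed from the Rosa26 locus in most cell types, all received tamoxifen, and they were 24 to 28 weeks old. KO hosts (n = 6, tumors A to F) were homozygous for a floxed Pkn2 allele, the gene of protein kinase N2, and WT hosts (n = 5, tumors A to E) were littermates with wild-type Pkn2. Into each pancreas 1000 TB32048 cells, a carcinoma line from a female KPC mouse, were injected in DMEM and Matrigel. These cells kept Pkn2, so that the deletion concerned host cells of most types and no carcinoma cell, and Pkn2 counts in the bulk tumor do not check the genotype. How completely the host cells of these tumors lost the gene is not given by the data.

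SLRPs are secreted matrix proteins whose core is a curved stack of leucine-rich repeats closed by cysteine clusters, and most carry chondroitin, dermatan or keratan sulfate chains. They bind collagen fibrils and govern their diameter and spacing, and several also hold growth factors such as TGF-beta or signal through Toll-like receptors when released. In the dense stroma of pancreatic carcinoma they are made mainly by fibroblasts. The question asked of the data was whether loss of PKN2 in the host went with other levels of these genes in the tumor.

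Total counts ranged from 16294128 to 31121422 per tumor. Of the 11 tumors, WT A, B and C stood apart in ways that touch every result below. On the first principal component of log2 CPM (counts scaled to a common library size) they lay at -66.7, -120 and -36.3, with the other 8 tumors between 10.97 and 43.8. Relative to each gene's mean over the 11 tumors, their log2 CPM also declined with exon length. Spearman's rho of this deviation with length across genes was -0.50, -0.45 and -0.17, against 0.10 to 0.37 elsewhere. Ribosomal RNA genes gave 1.31%, 6.39% and 1.40% of their counts, against 0.241% to 0.765% in the others. The part of these differences in the SLRP values was not tested. The fold changes of the members and the correlations are given with and without these tumors, and the other results on all 11.

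No SLRP passed the test between genotypes. With the edgeR quasi-likelihood test on all 11 tumors and Benjamini-Hochberg adjustment over 16536 genes, 0 of the 9 testable members had an adjusted p under 0.05 (range 0.25 to 0.99), where 0.0181% of all genes did. At an unadjusted p under 0.05 there were 0 of 9 members in edgeR, against 24% of all genes, but that count rested on 1 tumor: without WT E there were 5 of 9, Bgn, Lum, Fmod, Prelp and Podn, against 32.1% of all genes. DESeq2 called 0 of the 8 members to which it gave an adjusted p, with 8% of all genes called. By limma on the deposited normalized values 0 of 9 were called at an adjusted p under 0.05 (0.278% of all genes), and 4, Bgn, Fmod, Prelp and Podn, were under 0.05 unadjusted (22.1% of all genes). The fitted mean was nevertheless higher in KO than in WT tumors for 8 of the 9, where 48.0% of all genes tested had a higher mean in KO. The median log2 fold change (KO over WT) was 0.51 over the members and -0.026 over all genes. The members varied together over the tumors, with a median Pearson's r of log2 CPM of 0.60 over their pairs. They are thus not independent, and the count of 8 was not tested. With WT A, B and C left out, 4 of the 9 had a higher mean in KO. On all 11 tumors no member was without overlap between the groups. Of all genes 3.6% were, so few that this does not set the members apart. In bulk tumors a smaller share of a cell type and less RNA per cell cannot be told apart.

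**Figure D1:**
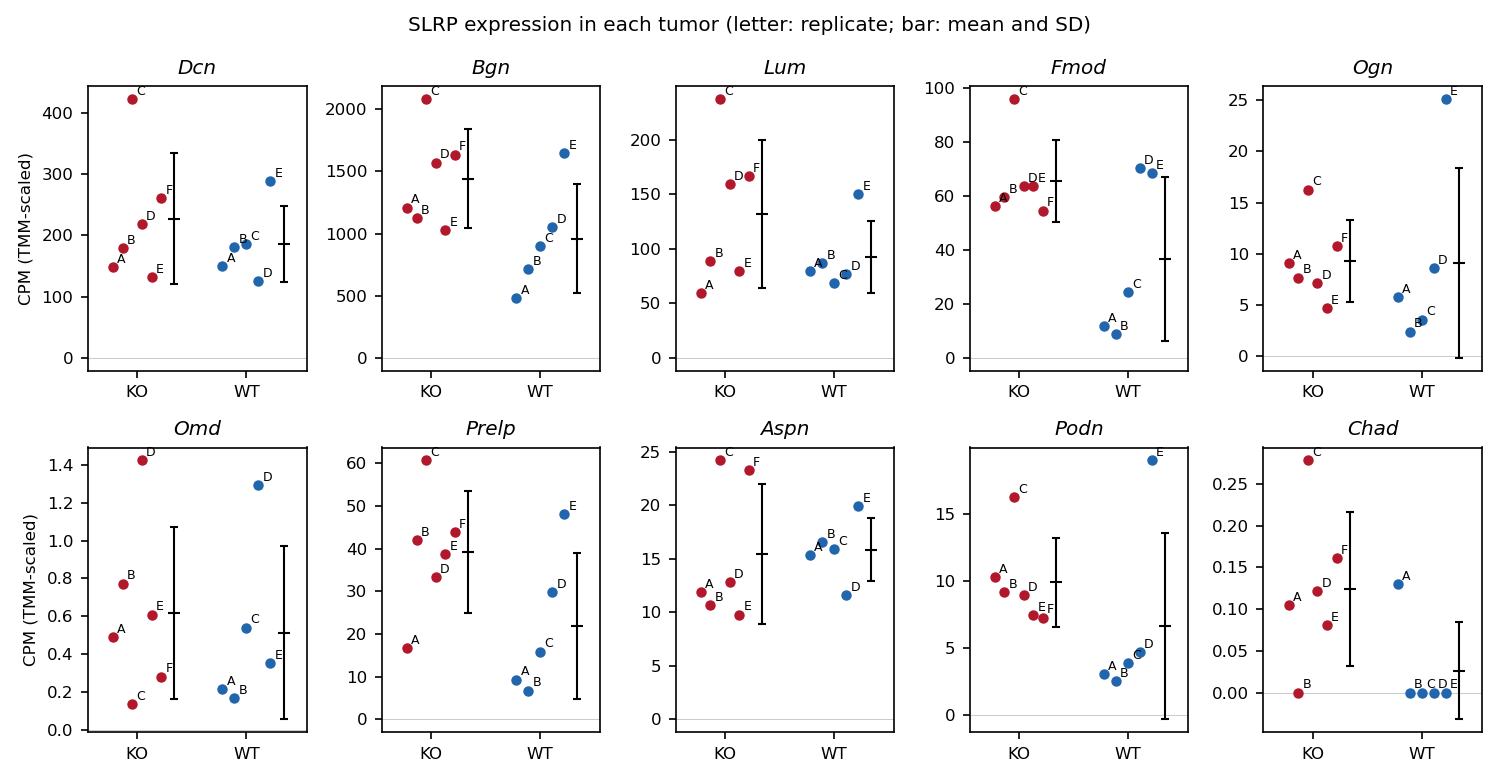
Expression of the 10 SLRP genes in each tumor, in CPM (vertical axis from near 0 in each panel), for 6 KO (red) and 5 WT (blue) tumors; letters name the tumor and the black bar gives mean and SD. For Bgn, Fmod and Prelp, WT A, B and C lie below every KO tumor and WT D and E lie among them, and for Podn and Ogn WT E lies above every KO tumor.

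Class I of the family holds biglycan, decorin and asporin, which share a cysteine pattern. Bgn (biglycan, ENSMUSG00000031375, GRCm38 chromosome X, 73483602 to 73495933, plus strand), which carries chondroitin or dermatan sulfate chains and can signal through Toll-like receptors, was at 479, 718, 900.4, 1050.4 and 1649.9 CPM in WT tumors A to E. In KO tumors it ran from 1027 through a median of 1390.5 to 2083 CPM. WT A, B and C were below all KO tumors, whereas WT D and E lay within the KO range. The means were 1442 ± 398 CPM in KO (SD, n = 6) and 959.6 ± 441 CPM in WT (SD, n = 5), 0.59 higher in KO on the log2 fold change scale (SE 0.30, adjusted p = 0.25 by edgeR).

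Dcn (decorin, ENSMUSG00000019929, chromosome 10, 97479609 to 97518143, plus strand), the founding SLRP, which binds type I collagen and TGF-beta, was at 151, 180.5, 186, 126 and 289 CPM in WT A to E. KO tumors ran from 132 through 199.6 to 423 CPM, and KO C alone lay above all WT tumors with KO F next at 262 CPM. The groups overlapped almost throughout: only WT D lay below the lowest KO tumor. The log2 fold change was 0.29 (SE 0.31, edgeR adjusted p = 0.58).

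Aspn (asporin, ENSMUSG00000021388, chromosome 13, 49544443 to 49567565, plus strand), which has an aspartate-rich start and usually no sugar chain, was at 15.4, 16.5, 15.9, 11.6 and 19.9 CPM in WT A to E. In KO tumors it ran from 9.79 through 12.4 to 24.2 CPM, in such a way that KO C and F lay above all WT tumors and the other KO tumors at or below 12.8 CPM. It was the 1 member with a higher WT mean, 15.9 ± 2.95 CPM (SD, n = 5) against 15.4 ± 6.50 CPM in KO (SD, n = 6). KO minus WT came to -0.038 on the log2 scale (SE 0.27, adjusted p = 0.95 by edgeR), close to 0, and turned positive when KO A, B, D or E or WT E was left out, at 0.026, 0.048, 0.0098, 0.063 and 0.060.

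Class II holds lumican, fibromodulin, PRELP and osteomodulin, the keratan sulfate type. Lum (lumican, ENSMUSG00000036446, chromosome 10, 97565128 to 97572703, plus strand), which limits the thickness of collagen fibrils, was at 79.5, 87.3, 68.6, 76.9 and 149.96 CPM in WT A to E. KO tumors ran from 59.5 through 124 to 237 CPM. KO A was the lowest of all 11 tumors and KO C the highest, and no WT tumor fell outside the KO range. The log2 fold change was 0.51 (SE 0.34, edgeR adjusted p = 0.37).

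Fmod (fibromodulin, ENSMUSG00000041559, chromosome 1, 134037254 to 134048277, plus strand), which steers collagen crosslinking, was at 11.8, 8.76, 24.4, 70.4 and 68.4 CPM in WT A to E. KO tumors ran from 54.6 through 61.6 to 96.1 CPM, with 5 of them between 54.6 and 63.7. The WT tumors thus fell on both sides: A, B and C below every KO tumor, D and E above 5 of the 6. The mean was 65.7 ± 15.4 CPM in KO (SD, n = 6) and 36.7 ± 30.4 CPM in WT (SD, n = 5), 0.83 higher in KO on the log2 scale (SE 0.48, adjusted p = 0.30 by edgeR).

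Prelp (PRELP, ENSMUSG00000041577, chromosome 1, 133910304 to 133921414, minus strand), which links collagen to the basement membrane proteoglycan perlecan, had a similar split of the WT tumors, at 9.33, 6.76, 15.9, 29.8 and 48.1 CPM in A to E. KO tumors ran from 16.7 (KO A) through 40.4 to 60.6 CPM (KO C). WT A, B and C were again below every KO tumor, and D and E within the KO range. The log2 fold change was 0.83 (SE 0.46, edgeR adjusted p = 0.28). Fmod and Prelp belong to a list of matrix genes that the study chose partly on these tumors, so that their direction here is not independent evidence for that list.

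Omd (osteomodulin, ENSMUSG00000048368, chromosome 13, 49582462 to 49592822, plus strand), best known from bone, was close to the depth limit, with 2 to 35 raw counts per tumor. It was at 0.217, 0.167, 0.541, 1.29 and 0.355 CPM in WT A to E and ran from 0.139 through 0.55 to 1.42 CPM in KO tumors. Its highest values were in KO D and WT D, and its lowest was in KO C, the tumor with the most Bgn, Dcn, Lum, Fmod, Prelp and Aspn. The log2 fold change was 0.23 (SE 0.62, edgeR adjusted p = 0.85), and -0.20 without KO D.

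Ogn (osteoglycin or mimecan, ENSMUSG00000021390, chromosome 13, 49608046 to 49624501, plus strand), of class III, was at 5.77, 2.42, 3.59, 8.62 and 25.1 CPM in WT A to E and ran from 4.71 through 8.40 to 16.3 CPM in KO tumors. WT B and C lay below all KO tumors and WT E above all of them, so that WT tumors spanned a wider range than KO tumors. The log2 fold change was 0.019 (SE 0.52, edgeR adjusted p = 0.99). Without WT E it was 0.86 (SE 0.40, edgeR adjusted p = 0.17), and it was below 0 without KO C, KO F or any of WT A to D, at -0.22 to -0.002.

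Podn (podocan, ENSMUSG00000028600, chromosome 4, 108014791 to 108096445, minus strand), a member outside the canonical classes, was at 3.04, 2.50, 3.88, 4.70 and 19.0 CPM in WT A to E. KO tumors ran from 7.25 through 9.04 to 16.2 CPM. WT A, B, C and D lay below every KO tumor and WT E above every KO tumor. On all tumors the log2 fold change was 0.57 (SE 0.49, edgeR adjusted p = 0.49). Its gene model overlaps Scp2 on the same strand, so reads in shared exons could have been left uncounted, and its level is uncertain to that extent.

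Chad (chondroadherin, ENSMUSG00000039084, chromosome 11, 94565047 to 94569127, plus strand), a cartilage protein without sugar chains, did not pass the filter on low counts. It had 3, 0, 8, 3, 2 and 4 counts in KO A to F and 3, 0, 0, 0 and 0 counts in WT A to E. Most tumors were at or below 3 counts, the limit taken for detection (0.0887 to 0.250 CPM, counting error only), so no fold change is given.

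The result for Podn, and the direction for several others, rested on which WT tumors were compared. Without WT E, edgeR called 1 of the 9 members higher in KO, Podn, by 1.48 on the log2 scale (SE 0.30, adjusted p = 0.0279), where 3.63% of all genes were called higher. Bgn (0.88, SE 0.27, edgeR adjusted p = 0.0582) and Prelp (1.34, SE 0.43, edgeR adjusted p = 0.0608) came next, and the median over the members was 0.86. With WT A, B and C left out instead, 4 of the 9 had a higher mean in KO and the median was -0.027. In that comparison, of 6 KO with 2 WT tumors, Bgn was at 0.099 (SE 0.29), Prelp at 0.012 (SE 0.39), Fmod at -0.076 (SE 0.20), Podn at -0.25 (SE 0.47) and Ogn at -0.86 (SE 0.46), with edgeR adjusted p of 0.37 or more for each of these 5. With the share of ribosomal RNA added to the model on all 11 tumors, the median was 0.27, with Fmod at 0.39 (SE 0.39), Prelp at 0.35 (SE 0.35) and Podn at 0.27 (SE 0.38).

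**Figure D2:**
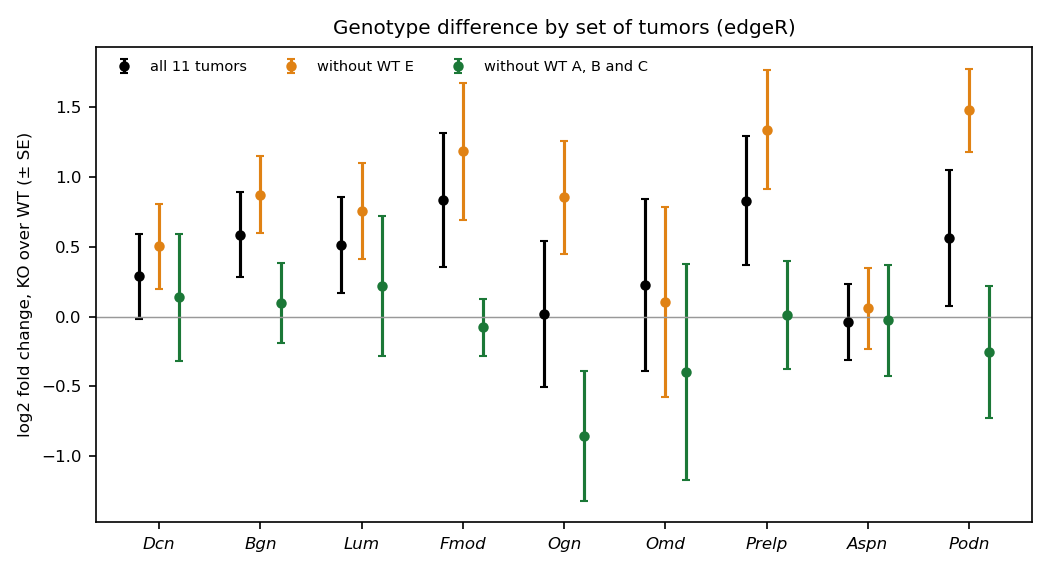
Log2 fold change (KO over WT, vertical axis) with its standard error for the 9 SLRPs that could be tested, from edgeR on all 11 tumors (black), without WT E (orange) and without WT A, B and C (green). Podn spans from -0.25 to 1.48 and Ogn from -0.86 to 0.86 with the set of tumors, whereas Aspn stays between -0.038 and 0.060.

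Marker sums of cell types also set WT E apart from the other WT tumors, and WT A for skeletal muscle. WT E held the most pancreatic acinar and islet RNA of the 11, with a summed level of 2028 CPM over 7 acinar markers and 323 CPM over 6 islet markers, against up to 181 and 62.3 CPM in the other WT tumors and up to 677 and 79.4 CPM in KO tumors. It also had the highest summed level of 14 fibroblast markers, 9768 CPM, against 2798, 4827, 4473 and 3262 CPM in WT A to D and 4732 to 9728 CPM in KO tumors. The sum over 6 skeletal muscle markers was 5.24 to 12.7 CPM in KO and 14.02 to 229 CPM in WT tumors, with WT A the highest. No marker of these 4 lists was at 0 in every tumor, and the part of these cells in the SLRP values was not tested.

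Per length of exon, taken as the union of all annotated exons of a gene, the SLRPs covered more than 3 orders of magnitude. The medians over 11 tumors, in CPM per kilobase of exon, were 184 for Bgn, 35.7 for Lum, 30.9 for Dcn, 18.0 for Fmod, 9.22 for Prelp, 6.53 for Aspn, 2.998 for Ogn, 1.74 for Podn and 0.218 for Omd, with Chad at 0.0484. Bgn was thus the leading SLRP, at 5.16 times the median of Lum, and exceeded Lum in 11 of 11 tumors. Within a tumor this order was stable: Dcn exceeded Fmod, Fmod exceeded Prelp, Ogn exceeded Podn and Podn exceeded Omd in 11 of 11 tumors, and Aspn exceeded Ogn in 10. Lum and Dcn (Lum higher in 9 of 11 tumors) and Prelp and Aspn (Prelp higher in 7 of 11) were not separated, and across tumors the ranges of all neighbors in this order overlapped. The order of Lum and Dcn depended on the length used, 2448 bases for Lum and 5838 for Dcn. In CPM Dcn had the higher median, 199.6 against 124 in KO and 180.5 against 79.5 in WT tumors.

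**Figure D3:**
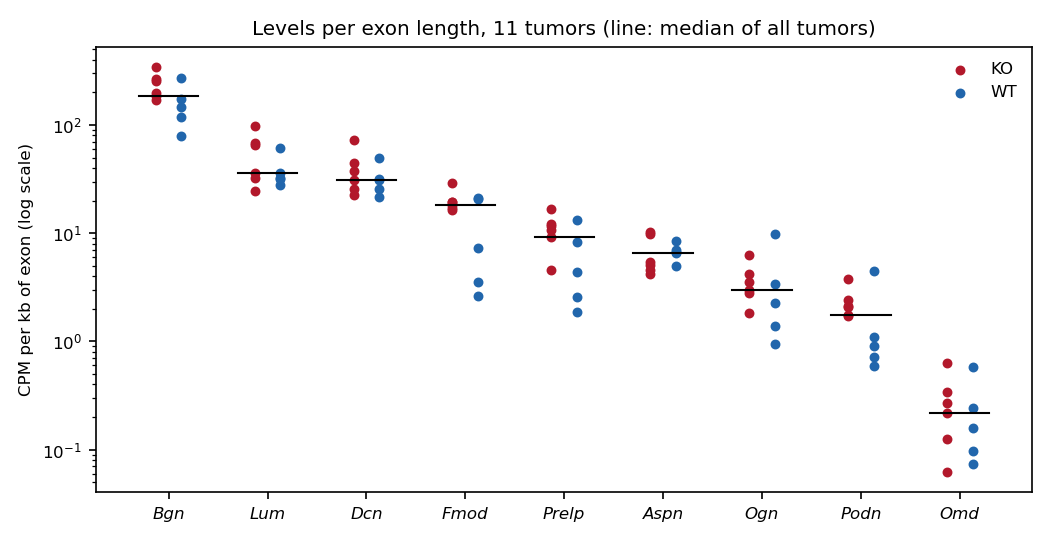
CPM per kilobase of exon (log scale) of 9 SLRPs in 6 KO (red) and 5 WT (blue) tumors, ordered by the median of all tumors (black line), from Bgn at 184 to Omd at 0.218. Chad, at 0 in 5 tumors, is left out of the log axis.

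The 10 genes together took 0.145% to 0.308% of all counts in KO and 0.0696% to 0.247% in WT tumors. Of their summed level per length, Bgn made up 64.1 ± 3.70% in KO (SD, n = 6) and 60.5 ± 5.51% in WT tumors (SD, n = 5). Dcn, Lum, Ogn, Omd and Aspn had a lower mean share in KO than in WT tumors. For Aspn it was 1.74 ± 0.33% in KO and 2.92 ± 1.04% in WT tumors, with ranges of 1.36% to 2.32% and 1.87% to 4.27%. The share of Fmod was 5.56 ± 1.23% in KO and 3.93 ± 2.61% in WT.

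Since SLRPs come mainly from fibroblasts, each was also set against the mean log2 CPM of Col1a1, Col1a2, Col3a1, Pdgfra and Pdgfrb in the same tumor, a description without a test. These are 5 of the 14 fibroblast markers. Of all 14, 10 had a higher and 4 a lower mean in KO. Other choices of markers were not tried, so the sign of a ratio may depend on this choice. On this log2 ratio Aspn was at -3.55, -4.29, -4.33, -4.48 and -5.14 in WT A to E and ran from -5.38 to -4.85 in KO tumors. WT A, B, C and D, 4 of the 5, thus lay above every KO tumor, and WT E within them. The mean ratios were -4.36 ± 0.57 in WT (SD, n = 5) and -5.06 ± 0.21 in KO (SD, n = 6). The marker mean alone was 7.50, 8.34, 8.32 and 8.03 in WT A to D, below every KO tumor (8.38 to 9.45), and 9.46 in WT E. The ratio of Aspn thus set WT A to D apart from KO tumors as its denominator did. Aspn itself had a log2 fold change of -0.038 (SE 0.27). WT A, B and C are the tumors that stood apart in exon length trend and ribosomal RNA, and the part of this in the ratio was not tested. With the gene length offset the log2 fold change of Aspn itself was 0.11. Dcn had the same sign, -0.85 ± 0.38 in WT and -1.21 ± 0.25 in KO, but only WT A lay above the KO tumors. Lum, Ogn and Omd also had a lower mean ratio in KO, by -0.18, -0.17 and -0.32 as KO minus WT. Bgn had similar means in both groups, at 1.53 ± 0.17 in KO and 1.45 ± 0.34 in WT. For this gene WT D, at 2.00, lay above all KO tumors and WT B, at 1.14, below them. Fmod was at -2.91 ± 0.44 in KO and -3.62 ± 1.19 in WT, where WT A, B and C lay below all KO tumors and WT D above them, and Prelp at -3.73 ± 0.51 and -4.23 ± 0.89.

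**Figure D4:**
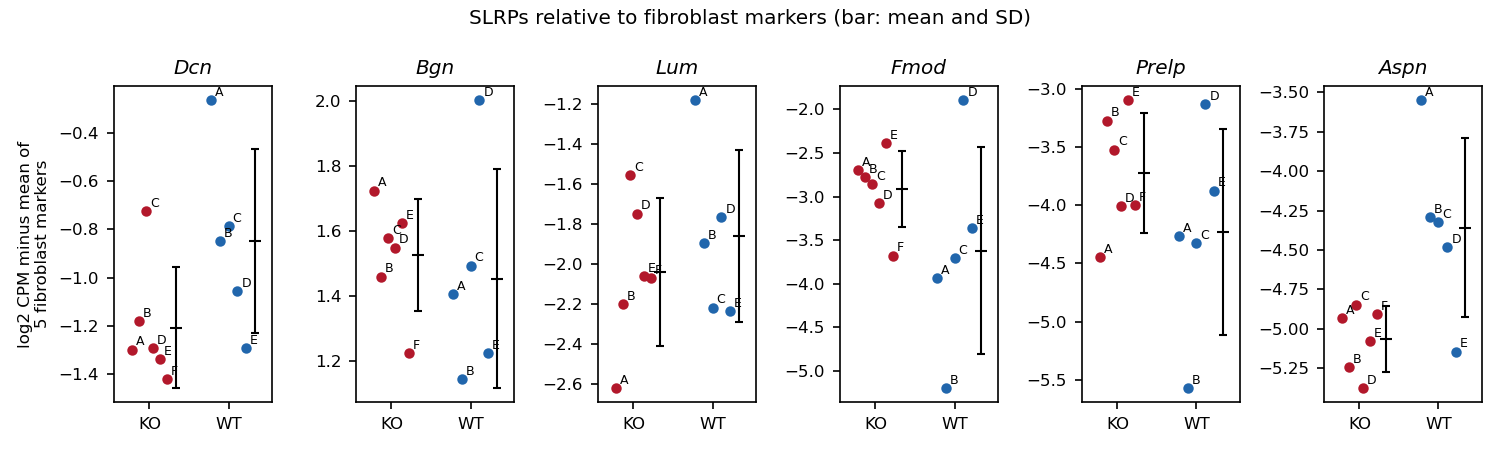
Log2 CPM of 6 SLRPs minus the mean log2 CPM of 5 fibroblast genes (vertical axis) in 6 KO (red) and 5 WT (blue) tumors, with the mean and SD as black bars. Aspn lies between -5.38 and -4.85 in KO tumors, and 4 of 5 WT tumors, WT A to D, lie above that range. The mean of the 5 fibroblast genes alone is lower in WT A to D than in every KO tumor.

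Across the 11 tumors the SLRPs fell in with each other to different degrees, given here as Pearson's r of log2 CPM, a description in which all values share the same libraries. Over 36 pairs the median r was 0.60, with a range of -0.71 to 0.92. The closest pair was Fmod and Prelp on chromosome 1 (r = 0.92), followed by Dcn and Lum on chromosome 10 (r = 0.90). Without WT A, B and C (8 tumors) they stood at 0.55 and 0.93, so that the likeness of Fmod and Prelp rested in large part on these 3 tumors. Dcn, Lum and Aspn went together in both sets (r = 0.70 to 0.90 in 11 tumors, 0.83 to 0.93 in 8), and Bgn joined them more closely in the 8 tumors (r = 0.90 to 0.97) than in the 11 (r = 0.37 to 0.73). Neighbors on a chromosome were not always alike: Omd and Aspn, 14897 bases apart, had the lowest r of all pairs, -0.71, with Omd at few counts.

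**Figure D5:**
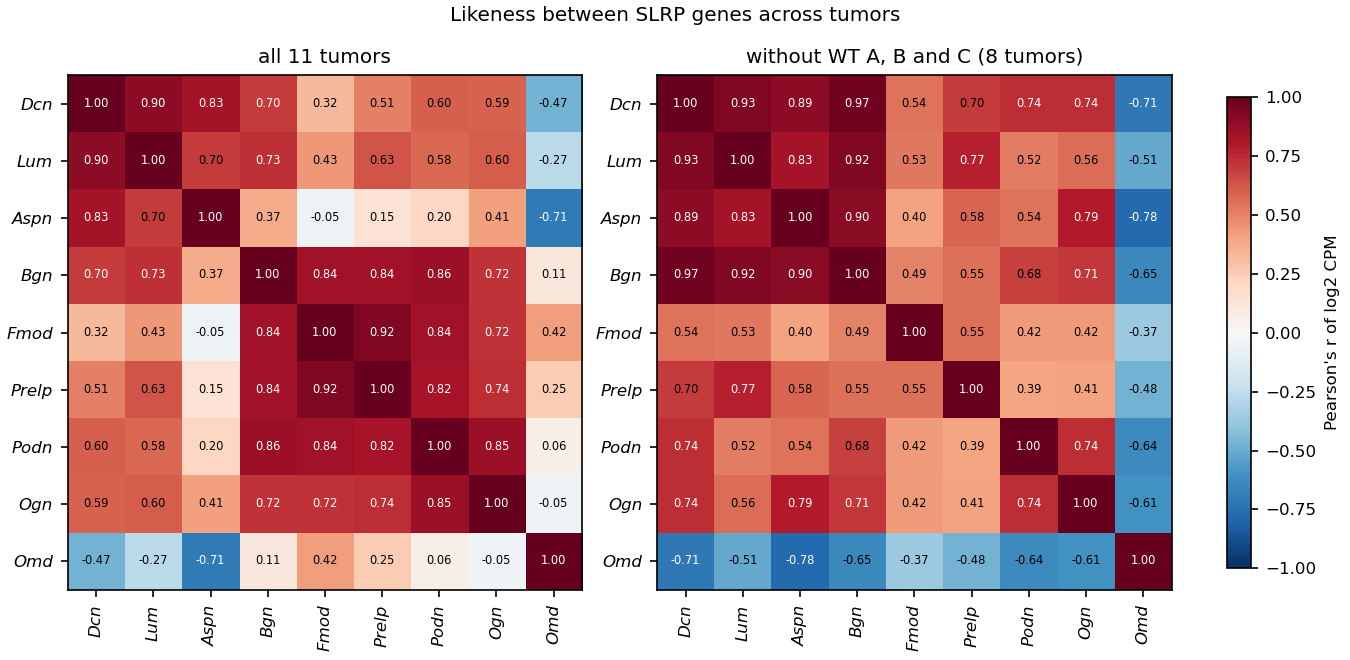
Pearson's r of log2 CPM between 9 SLRPs over all 11 tumors (left) and over the 8 tumors other than WT A, B and C (right), from -1 (blue) to 1 (red). Fmod and Prelp stand at 0.92 on the left and 0.55 on the right, Dcn and Lum at 0.90 and 0.93.

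Fmod and Prelp on chromosome 1, the pair most alike, are shown by the 250 bases before their RefSeq start sites (GRCm38.p6, 5' to 3' on the strand of the gene), with Bgn, the most abundant SLRP, and Aspn, for comparison. Over all 11 tumors Aspn had an r of -0.050 with Fmod and 0.15 with Prelp, and over the 8 without WT A, B and C of 0.40 and 0.58. RefSeq promoters were matched for 8 of the 10 members. Capitals mark matches on either strand to a TATA box or a CCAAT box, to a GC box, or to the motifs of the TEAD and AP-1 transcription factors. The TATA box was searched as TATAAA and the CCAAT box by the letters of its name. For the GC box the letters were GGGCGG. The motif taken for TEAD factors was GGAATG. For AP-1 it was TGANTCA.
Fmod, chr1:134037004-134037253, plus strand: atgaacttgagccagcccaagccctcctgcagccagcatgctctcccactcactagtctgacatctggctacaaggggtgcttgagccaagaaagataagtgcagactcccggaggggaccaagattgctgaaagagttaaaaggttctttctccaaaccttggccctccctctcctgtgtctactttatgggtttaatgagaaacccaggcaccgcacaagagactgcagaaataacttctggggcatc
Prelp, chr1:133921402-133921651, minus strand: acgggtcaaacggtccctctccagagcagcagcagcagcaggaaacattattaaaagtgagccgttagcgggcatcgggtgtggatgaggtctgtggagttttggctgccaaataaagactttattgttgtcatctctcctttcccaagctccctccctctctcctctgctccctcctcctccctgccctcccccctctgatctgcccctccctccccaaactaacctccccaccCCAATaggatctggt
Bgn, chrX:73483351-73483600, plus strand: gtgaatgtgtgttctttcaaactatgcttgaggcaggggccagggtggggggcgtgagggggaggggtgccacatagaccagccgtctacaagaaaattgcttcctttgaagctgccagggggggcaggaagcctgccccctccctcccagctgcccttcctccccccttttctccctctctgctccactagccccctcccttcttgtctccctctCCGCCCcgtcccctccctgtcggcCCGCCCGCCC
Aspn, chr13:49544193-49544442, plus strand: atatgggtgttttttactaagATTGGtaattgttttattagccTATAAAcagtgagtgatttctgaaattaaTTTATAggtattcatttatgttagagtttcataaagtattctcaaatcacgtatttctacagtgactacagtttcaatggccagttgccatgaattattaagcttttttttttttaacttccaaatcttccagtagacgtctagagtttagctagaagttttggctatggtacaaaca
Fmod held none of these motifs, and Prelp only a CCAAT box, 15 bases before the start. Bgn held 3 GC boxes on the opposite strand, at 34, 10 and 6 bases before the start, the last pair overlapping, and 64.4% of its bases were G or C. Aspn, with 30% G and C, held a TATA box on each strand, at 207 and 178 bases, and a CCAAT box on the opposite strand at 229 bases. Of 32536 mouse promoters of this length, 12.3% held a TATA box, 33.8% a CCAAT box, 32.97% a GC box, 12.6% the TEAD motif and 6.73% the AP-1 motif, on either strand. The TEAD motif was present in 1 of the 8 matched members, Ogn, at 86 bases before the start, and the AP-1 motif in none. These matches describe the letters in the window and no binding.

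Among the genes most like the SLRPs over the 11 tumors, by the correlation of log2 CPM with the mean z score of the 9 members, were Fgf2 (r = 0.96), a fibroblast growth factor, Colec12 (0.95), Col16a1 (0.94), Flrt2 (0.94), Fndc1 (0.94), Grb10 (0.93) and Adam19 (0.93). Over the 8 tumors without WT A, B and C these stood at 0.85 to 0.92. All genes named here for likeness, also to single members, were picked as the highest in r among the 16536 genes tested. Such picked values run high, and the 8 tumors were part of the pick, so they are no independent check. Among single members, Bgn was most like Fndc1 (r = 0.98), Lum most like the fibroblast growth factor receptor gene Fgfr1 (r = 0.97) and Dcn most like the syndecan gene Sdc2 (r = 0.95), and 0.94, 0.97 and 0.95 without those 3 tumors. Podn was most like Lrrn4 (r = 0.96, and 0.87 without those 3 tumors), a mesothelial marker. Lrrn4 was at 0, 0, 0.0983, 0.431 and 2.87 CPM in WT A to E and from 0.528 to 2.99 CPM in KO tumors. Upk3b, another mesothelial marker, was at 0.0868, 0.334, 1.97, 1.76 and 2.90 CPM in WT A to E, and from 0.667 to 2.80 CPM in KO tumors. Both were thus highest among WT tumors in WT E, at few counts. The sum over 7 mesothelial markers, none of them at 0 in every tumor, was 1243 CPM in WT E, within a WT range of 571 to 1741 CPM. It ran from 395 to 1240.2 CPM in KO tumors. Most of it came from Krt19, which epithelial cells also express, and Msln. Msln, unlike Lrrn4 and Upk3b, was not highest in WT E, at 285, 150, 457, 365 and 305 CPM in WT A to E. In KO tumors it ran from 136 to 396 CPM. The part of mesothelial cells in Podn was not tested.

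The other genes of the SLRP system were read from lists. No gene in them passed edgeR after adjustment, and counts at an unadjusted p under 0.05 are to be read against the 24% of all genes. Of 8 further SLRP family genes, 4 could be tested, 0 of them under 0.05, and the values for Tsku (tsukushi), Chadl and Ecm2 were 0.25, -0.40 and 0.095 on the log2 fold change scale. Of the 10 testable fibrillar collagens and their associated chains, the main ligands of the SLRPs, 9 had a higher mean in KO and 1, Col5a2, was under 0.05 (0.72, SE 0.32). Of 10 other matrix proteoglycans, only Hspg2, perlecan, was under 0.05 (0.69, SE 0.28).

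Among the enzymes that build the sugar chains, 7 of 22 genes for chondroitin and dermatan sulfate were under an unadjusted 0.05 in edgeR, 5 higher and 2 lower in KO. Chpf2, a chondroitin polymerizing factor, had the smallest p of them, at 76.6 ± 7.11 CPM in KO (SD, n = 6) and 50.9 ± 7.87 CPM in WT (SD, n = 5), 0.59 higher on the log2 scale (SE 0.14, edgeR adjusted p = 0.0818), with B3gat3, which completes the linker to the core protein, at -0.63 (SE 0.19). For keratan sulfate 1 of 6 genes was under 0.05, the galactosyltransferase gene B4galt1 at 0.66 (SE 0.20). Of 12 proteases that mature or cleave SLRPs, 4 were under 0.05, all higher in KO, among them Tll1, a tolloid protease of the type that trims the biglycan propeptide (1.95, SE 0.52), and the gelatinases Mmp2 (1.03, SE 0.39) and Mmp9 (0.95, SE 0.37). Of 20 ligands and receptors, 5 were under 0.05, all higher in KO, with Tgfb3, a TGF-beta ligand, at 0.73 (SE 0.19), the endocytic receptor gene Lrp1 at 0.98 (SE 0.27) and the biglycan receptor gene Tlr4 at 0.51 (SE 0.18).

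Of the cell type lists, 0 of 14 fibroblast markers and 0 of 9 contractile and pericyte markers were under an unadjusted 0.05 in edgeR, with Col1a1 at 0.41 (SE 0.38) and Pdgfra at 0.60 (SE 0.36). Of the fibroblast markers 10 had a higher and 4 a lower mean in KO, and of the contractile and pericyte markers 4 and 5. Epithelial markers had lower means in KO for 7 of 7 genes, 3 of them under 0.05, including Krt19 at -0.92 (SE 0.33), and their summed level was 2511 to 5042 CPM in KO and 3083 to 8151 CPM in WT tumors. Of 6 macrophage markers 2 were under 0.05, Csf1r at 0.83 (SE 0.24) and Adgre1 at 0.68 (SE 0.25), and of 6 testable adipocyte markers 3, with Adipoq at 2.89 (SE 1.07). Of these 6 adipocyte markers 4 had a higher and 2 a lower mean in KO. The summed level of 7 adipocyte markers overlapped between the groups, at 76.3 to 211 CPM in KO and 60.5 to 250 CPM in WT tumors, and was highest in WT B. Of 5 testable cartilage, bone and tendon markers, where Omd, Chad and Prelp are also found, 0 were under 0.05. None of the testable acinar, islet, endothelial or Schwann and nerve markers was under 0.05, while 1 of 7 mesothelial markers, Krt19 again, and 3 of 3 testable skeletal muscle markers had lower KO means at that level. The part of these cells in the SLRP values was not tested.

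The SLRP genes lie partly in clusters. Kera and Epyc, the neighbors of Lum and Dcn, had at most 4 and 7 counts in any tumor, and Optc, 2305 bases from Prelp, at most 11. On chromosome 13 the order is Ecm2, Aspn, Omd and Ogn, inside or beside Cenpp, a centromere gene on the opposite strand, whose log2 fold change was -0.60 (SE 0.30, adjusted p = 0.24 by edgeR). Libraries and alignment were strand-specific, but the strand setting of the counting is not given in the sources used here. Reads of Cenpp, with 81 to 159 counts per tumor, and of Aspn, Omd and Ogn may therefore not be fully told apart, which matters most for Omd. The same holds for Chad, which overlaps Acsf2 on the opposite strand.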

How the data were processed

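RNA of 11 tumors, 6 KO and 5 WT by their titles, was measured by sequencing. Per the labels and the study's methods, directional libraries were read paired-end, trimmed with Trimmomatic, aligned to mm10 with HISAT2 (version 2.1.0) and counted over exons with HTSeq (version 0.11.2), with uniquely aligned reads only. The authors deposited raw counts per gene in whole numbers. They also deposited normalized values, a signal equal to the raw count divided by a factor per tumor of 0.514 to 1.42.

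GENCODE M21 (GRCm38) gave symbols for 54165 of 54232 identifiers, exon lengths and positions. CPM were scaled by TMM factors, and log2 CPM used a prior count of 2. Genotypes were compared with the quasi-likelihood test of edgeR (version 4.0.16, R 4.3.3) after filterByExpr, without covariates, adjusted over 16536 genes, at a threshold of 0.05. Each SE was obtained from the log2 fold change and F, as the size of the first over the root of the second. Each p-value measures the spread between tumors of separate mice. Alternatives were DESeq2 (version 1.42.0), limma (version 3.58.1) on log2 of the deposited normalized signal plus 1, other filters and scalings, a ribosomal RNA covariate, a gene length offset, and tumors left out. The fitting script was tested on simulated data.

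The named genes were all members, in each list the genes past the threshold or else the 3 with the smallest p, the defining marker of a cell type, the genes most alike and neighbors within 100 kb. A few of these are given, and 1 of the genes most alike is not reported here. The members, the lists and the tumors left out were chosen with earlier results of these data known. Precision is limited by depth: 3 counts correspond to 0.0887 to 0.250 CPM. The labels give no batch.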

Additional observations from a re-analysis of the deposited data

Results flagged for a closer look

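In a group of 5 or 6 tumors, a value was singled out where its gap to the next tumor took up more of the group's range than Dixon's critical value allows. This held for 3 of 20 groups, where chance would give about 1 if the groups were independent. The groups share the same tumors, so no excess can be read from this count. Fmod in KO C was at 6.60 on the log2(CPM + 1) scale, with the other KO tumors between 5.80 and 6.02, a gap of 0.728 of the range. Podn in WT E was at 4.32, with the other WT tumors between 1.81 and 2.51, a gap of 0.720 of the range. Chad in WT A was at 0.177 on that scale, from 3 counts, with the other 4 WT tumors at 0, so that its gap was bound to fill the range.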

How the results depend on the processing

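The members called higher in KO numbered 0 in all alternatives but 1. Leaving out each tumor in turn gave 0 to 1, the 1 being Podn without WT E (log2 fold change 1.48, edgeR adjusted p = 0.0279), and the members called lower numbered 0 throughout. DESeq2 gave Podn no p. Over all genes, calls ranged more widely than 1.5 times, from 3 in edgeR on all tumors to 1856 without WT E and 1489 by DESeq2, with 0 when the ribosomal RNA share was a covariate.

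The median log2 fold change of the members was 0.37 to 0.86 with each tumor left out in turn, 0.27 with the ribosomal RNA covariate, and -0.027 with WT A, B and C left out. In that last comparison Fmod (-0.076), Ogn (-0.86), Omd (-0.40) and Podn (-0.25) turned below 0. Ogn was at -0.34 with the ribosomal RNA covariate, and Aspn at 0.013 without a filter on low counts and 0.11 with the gene length offset. With each tumor left out, Ogn ran from -0.22 to 0.86, Omd from -0.20 to 0.91 and Aspn from -0.22 to 0.063. The cause was not tested. Of the 178 values of single members under the alternatives, 158 kept their direction and side of the threshold, 19 turned in direction and 1 passed the threshold.

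Letters A to E occur in both genotypes but name different mice, and same-letter tumors did not deviate together (r between -0.135 and 0.118 over 5 letters). With the letter as a replicate block, 0 members were called higher and 0 lower, and the median was 0.44. At an unadjusted p under 0.05 that fit had 2 of 9, Fmod and Prelp (15.9% of all genes). Omd and Chad were limited by depth.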
